A study of Homo sapiens with 18 samples.

Results

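The ATG8 genes and the genes of their ATG4 proteases were followed through 18 RNA sequencing libraries of HAP1, a near-haploid human cell line derived from a chronic myeloid leukaemia line. The 10 genes were chosen by symbol and matched to their Ensembl identifiers, out of 63677 identifiers counted per library: MAP1LC3A, MAP1LC3B, MAP1LC3B2, GABARAP, GABARAPL1, GABARAPL2, ATG4A, ATG4B, ATG4C and ATG4D. Parental cells (WT), a line labelled ATG7KO and a line labelled RB1CC1KO were each sampled in full medium (IMDM with 10% serum) and after 6 h in EBSS, a salt solution with glucose that supplies neither amino acids nor serum. The design gives 6 groups of line by medium with 3 libraries in each, described as independent biological replicates, and each knockout genotype is represented by 1 line, so a difference between lines cannot be told apart from a difference between clones.

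ATG8 proteins are small ubiquitin-like proteins that are joined to the lipid phosphatidylethanolamine on the growing autophagosome membrane, where they recruit cargo receptors and other partners. ATG4 cysteine proteases first trim each new ATG8 protein so that it ends in a glycine, and later cut the finished protein off the lipid. Between these cuts ATG7, an E1-like enzyme, and ATG3, an E2-like enzyme, carry the trimmed protein to the lipid; RB1CC1 (FIP200) is a scaffold of the ULK1 kinase complex that starts autophagosome formation. In human cells the family falls into an LC3 branch and a GABARAP branch.

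The 3′ ends of the ATG8 coding sequences show the site on which ATG4 acts, and are given for that reason. Each run is the coding strand 5′ to 3′ from GENCODE release 29 transcripts (GRCh38), ends with the stop codon, and has the last in-frame glycine codon in capitals.

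MAP1LC3A: tcccaggaaaccttcGGCttctga
MAP1LC3B: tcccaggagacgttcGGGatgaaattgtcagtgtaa
MAP1LC3B2: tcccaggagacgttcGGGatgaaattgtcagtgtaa
GABARAP: gacgaaagtgtctacGGTctgtga
GABARAPL1: gatgagagtgtctatGGGaaatga
GABARAPL2: ggagagaacacttttGGCttctga

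The glycine is codon 120 in the 3 LC3 genes and codon 116 in the 3 GABARAP genes. All 6 genes carry codons beyond it: 5 in MAP1LC3B and MAP1LC3B2 and 1 in the other 4. None of the 6 therefore encodes a protein that already ends in this glycine.

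MAP1LC3B2 is a near-identical copy of MAP1LC3B over the coding sequence, where little separates their reads. Their coding sequences matched at 376 of 378 bases (99.5%), with the substitutions C30G and A338G (MAP1LC3B base first, positions counted from the first base of the start codon). The 75 bases from the start codon, the length of 1 read in these libraries, differ at the base in capitals.

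MAP1LC3B: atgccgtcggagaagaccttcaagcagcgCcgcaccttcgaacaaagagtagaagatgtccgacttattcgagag
MAP1LC3B2: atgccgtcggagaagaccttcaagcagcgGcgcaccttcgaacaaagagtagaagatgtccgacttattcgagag

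Over whole transcripts, 233 of the 5575 75-base windows of MAP1LC3B (4.47%) occurred unchanged in MAP1LC3B2. These were 233 of the 1738 windows of MAP1LC3B2 (13.4%). Reads from the shared windows cannot be assigned to 1 of the 2 genes, but most windows of each gene are not shared. The other ATG8 pairs are further apart: MAP1LC3A and MAP1LC3B share 73.5% of aligned coding bases, and GABARAP and GABARAPL1 share 76.8%. Among the proteases, ATG4A and ATG4B share 62.3%.

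On GRCh38, MAP1LC3A lies on chromosome 20 (34546854 to 34560345, plus strand), MAP1LC3B on chromosome 16 (87383995 to 87404779, plus) and MAP1LC3B2 on chromosome 12 (116548105 to 116576448, plus). GABARAP lies on chromosome 17 (7240014 to 7242770, minus), GABARAPL1 on chromosome 12 (10212458 to 10223130, plus) and GABARAPL2 on chromosome 16 (75566351 to 75577881, plus). ATG4A lies on chromosome X (108091668 to 108154671), ATG4B on chromosome 2 (241637213 to 241673857), ATG4C on chromosome 1 (62784135 to 62865513) and ATG4D on chromosome 19 (10543895 to 10553418), all on the plus strand. The reads were mapped to GRCh37, so these positions and all lengths used below come from another build than the counts.

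Reads assigned to genes ranged from 4892072 (ATG7KO in EBSS, replicate 3) to 26005942 per library. ATG7 was at 15.6 ± 1.30 CPM (read counts scaled by TMM to a common library size; SD, n = 3) in WT and 4.02 ± 0.436 in ATG7KO in full medium. RB1CC1 was not lower in the line labelled RB1CC1KO: it was at 157 CPM against 105 in WT in full medium, and at 264 against 222 in EBSS, so RNA level does not check that label. RB1CC1KO below is therefore the name of the line so labelled, and each direction given for it is that line's. Among markers of other cell types, the haematopoietic genes PTPRC, CD34, SPI1, GATA1 and HBG1 stayed below 1 CPM in every library, whereas GATA2 was at 43.3 to 66.6 CPM, TAL1 at 1.27 to 54.7, RUNX1 at 4.24 to 14.8, KIT at 0.424 to 12.2 and CD44 at 0.543 to 6.14. VIM, a mesenchymal filament gene, was at 496 to 1248 CPM. Of the other mesenchymal markers, SPARC was at 44.7 to 167, FN1 at 45.0 to 156 and PDGFRA at 1.69 to 34.8 CPM. COL1A1 was at 13.1 to 25.3, THY1 at 0 to 5.41 and COL1A2 at 0 to 1.27 CPM. Among epithelial markers, KRT18 was at 45.8 to 78.0, KRT8 at 5.09 to 29.5 and ESRP1 at 0.0563 to 15.0 CPM. EPCAM was at 0 to 3.73 CPM, and CDH1 and KRT19 stayed below 1. In full medium the summed haematopoietic markers were at 114 to 129 CPM in WT, 77.0 to 79.1 in ATG7KO and 115 to 125 in RB1CC1KO. In the same order of lines, the summed epithelial markers were at 102 to 113, 62.5 to 67.0 and 71.8 to 81.8 CPM, and the summed mesenchymal markers at 733 to 765, 1017 to 1061 and 632 to 669 CPM. In EBSS, again in that order, the haematopoietic sums were 86.7 to 94.6, 70.6 to 73.0 and 84.3 to 95.1 CPM, the epithelial sums 116 to 122, 59.6 to 66.7 and 85.6 to 96.2, and the mesenchymal sums 1153 to 1181, 1485 to 1544 and 1172 to 1256. Of the 4 tested epithelial genes, 4 were lower in ATG7KO than in WT in each medium (edgeR adjusted p below 0.05). In RB1CC1KO 3 were lower and 0 higher in each medium. Of all tested genes, 6.07% in full medium and 7.17% in EBSS were lower in ATG7KO, and 8.87% and 16.9% in RB1CC1KO. The mesenchymal sum follows its highest gene, VIM, and does not give the direction of the others. The median log2 change of the mesenchymal genes was -0.16 in WT in EBSS against full medium, although their sum rose. In RB1CC1KO against WT in EBSS it was -0.62, although the sum was not lower. The part of these differences between groups in the results below was not tested.

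Of the 10 genes, 8 had enough reads to be tested; MAP1LC3A and MAP1LC3B2 did not. The table of all genes was fitted with edgeR's quasi-likelihood test over 15179 genes, and a gene was called when its Benjamini-Hochberg adjusted p was below 0.05. In EBSS against full medium, 6 of the 8 tested genes rose and 2 fell in WT, where 32.4% of all tested genes rose and 32.1% fell. In ATG7KO 5 rose and 1 fell (background 32.3% and 30.6%), and in RB1CC1KO 5 rose and 1 fell (background 31.9% and 33.3%). The median log2 fold change over the 8 genes was 0.49, 0.42 and 0.42 in the 3 lines, against -0.02, -0.01 and -0.03 over all tested genes. A called change in medium is therefore common in these data.

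**Figure D1:**
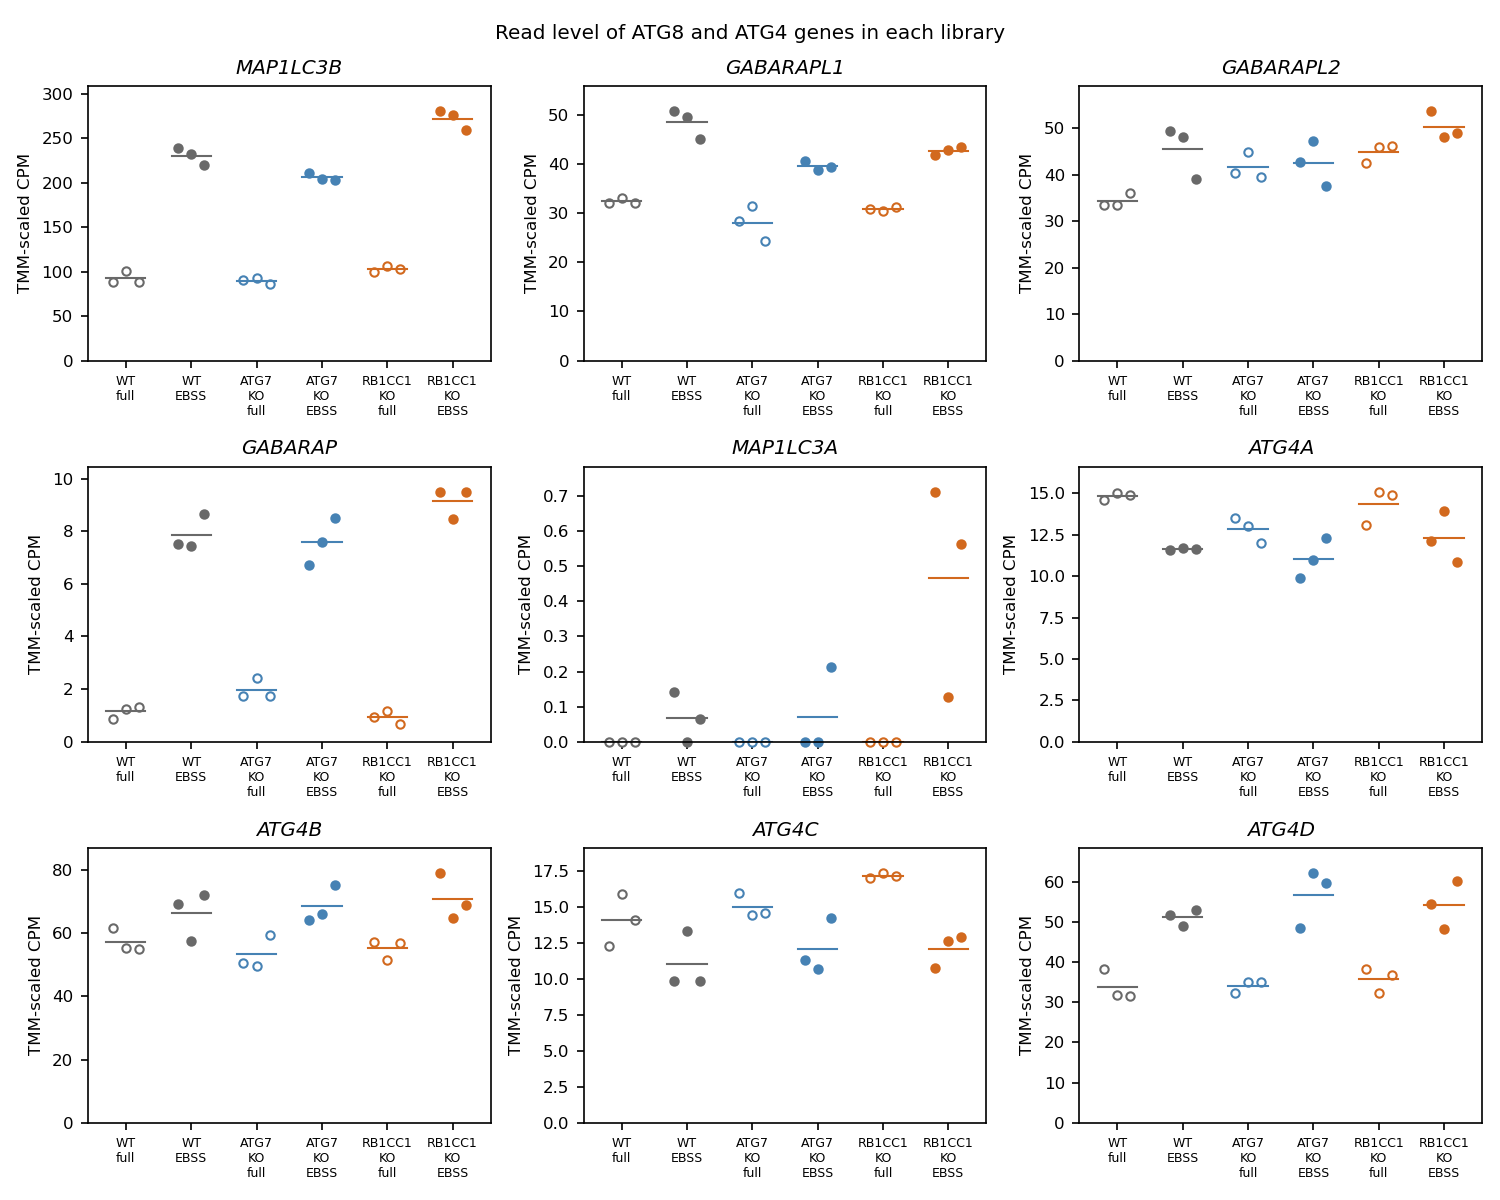
TMM-scaled CPM (linear axis from 0, a different scale in each panel) of 9 ATG8 and ATG4 genes in the 18 libraries. Open points are full medium, filled points 6 h EBSS, and lines are means of 3 libraries; MAP1LC3B and GABARAP separate the media in every line, MAP1LC3A is at 0 in full medium, and ATG4A and ATG4C are lower in EBSS on average.

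MAP1LC3B, the LC3 gene most used as an autophagosome marker, had the highest read level of the ATG8 genes in CPM, which is not scaled by length, and rose in all 3 lines. In WT it stood at 88.7, 100.4 and 89.1 CPM in full medium (replicates 1 to 3) and at 240, 232 and 220 CPM in EBSS. In ATG7KO it stood at 90.8, 92.7 and 86.7 CPM in full medium and at 212, 204 and 203 CPM in EBSS. In RB1CC1KO the values were 99.4, 107 and 103 CPM in full medium and 281, 276 and 260 CPM in EBSS. Every EBSS library lay above every full-medium library, with a gap wider than the spread within any group. The log2 fold change was 1.31 ± 0.06 (SE) in WT (edgeR adjusted p = 1.44e-19), 1.20 ± 0.06 in ATG7KO (2.53e-18) and 1.40 ± 0.06 in RB1CC1KO (1.17e-20), or 2.48-fold, 2.29-fold and 2.64-fold.

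GABARAP, the founding member of its branch, had few reads and the largest fold change of the tested members. It stood at 0.877, 1.24 and 1.34 CPM in WT in full medium and at 7.52, 7.45 and 8.65 CPM in EBSS. In ATG7KO it went from 1.73, 2.43 and 1.75 CPM to 6.72, 7.61 and 8.49 CPM, and in RB1CC1KO from 0.944, 1.18 and 0.668 CPM to 9.49, 8.47 and 9.49 CPM. The media did not overlap in any line, although these values rest on 11 to 200 reads per library. In log2 terms the change was 2.76 ± 0.21 in WT (edgeR adjusted p = 5.45e-14), 1.91 ± 0.19 in ATG7KO (9.74e-11) and 3.27 ± 0.20 in RB1CC1KO (3.35e-16).

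The GABARAP count may come from part of the gene. AC120057.2, an annotated gene on the same strand, covers 691 of the 2266 exon bases of GABARAP (30.5%) and 261 of its 351 coding bases before the stop codon, and it is listed at 0 reads in all 18 libraries. Of the 2396 75-base windows of GABARAP transcripts, 621 also occur in AC120057.2. With both strands searched, 1081 (45.1%) occur in some other annotated gene. AC120057.3, on the opposite strand, covers 571 of the 2266 exon bases and is not among the identifiers counted. Whether reads over the shared bases were set aside, and which part of GABARAP gave the counted reads, was not tested. The level of GABARAP therefore cannot be set against those of the other members. Its changes between media and between lines are those of the counted reads, which may not stand for the whole gene.

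**Figure D2:**
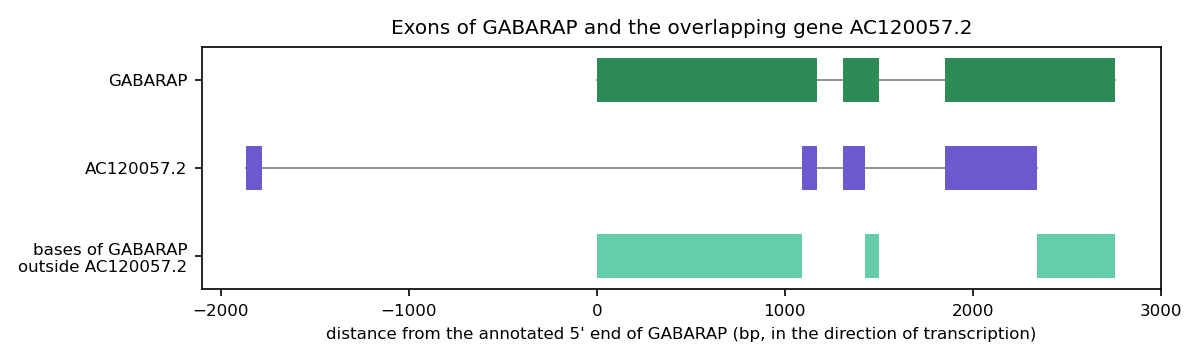
Exons of GABARAP and of AC120057.2 (GENCODE release 29), drawn by distance in bp from the annotated 5′ end of GABARAP in the direction of transcription. The bottom row shows the 1575 GABARAP exon bases outside AC120057.2, of which 1091 form the first stretch.

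GABARAPL1, a close relative of GABARAP, rose in all 3 lines by less than MAP1LC3B. It stood at 31.9, 33.1 and 32.0 CPM in WT in full medium and at 50.7, 49.6 and 45.1 CPM in EBSS. In ATG7KO it went from 28.3, 31.5 and 24.3 CPM to 40.5, 38.6 and 39.3 CPM, and in RB1CC1KO from 30.7, 30.5 and 31.2 CPM to 41.9, 42.8 and 43.3 CPM. No EBSS library fell among the full-medium libraries of its line. This was a log2 fold change of 0.58 ± 0.08 in WT (edgeR adjusted p = 1.13e-07), 0.49 ± 0.08 in ATG7KO (4.73e-06) and 0.47 ± 0.08 in RB1CC1KO (3.89e-06).

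GABARAPL2 (GATE-16), the third GABARAP-branch gene, passed the threshold in WT and not in the other lines. It stood at 33.5, 33.5 and 36.1 CPM in WT in full medium and at 49.4, 48.2 and 39.1 CPM in EBSS. In ATG7KO it stood at 40.5, 45.0 and 39.5 CPM in full medium and 42.8, 47.3 and 37.6 CPM in EBSS, so the media overlapped. In RB1CC1KO it stood at 42.5, 46.1 and 46.2 CPM in full medium and 53.8, 48.2 and 48.9 CPM in EBSS, without overlap. The fitted log2 fold change was 0.41 ± 0.09 in WT (edgeR adjusted p = 0.000143), 0.05 ± 0.09 in ATG7KO (0.616; -0.11 with upper-quartile scaling and -0.08 without ATG7KO EBSS replicate 2) and 0.16 ± 0.08 in RB1CC1KO (0.0947).

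That GABARAPL2 passed the threshold in 1 line and not in the others does not show that the lines differ. The difference of responses, ATG7KO minus WT, was -0.35 ± 0.13 (edgeR adjusted p = 0.167), and RB1CC1KO minus WT was -0.25 ± 0.12 (0.237). Without WT EBSS replicate 3, the lowest of the starved WT libraries, the first difference was -0.45 and passed (0.0415). For GABARAP the differences were -0.85 ± 0.30 (0.157) and 0.52 ± 0.32 (0.371). Of the 8 tested genes, none was called in either difference by edgeR, where 1.05% and 8.16% of all tested genes were. DESeq2 also called 0 in both, where it called 234 and 1321 of 15179 genes. At an unadjusted p below 0.05 in edgeR there were 2 in ATG7KO minus WT and 0 in RB1CC1KO minus WT. The share of all genes at that threshold is not given, so these counts are not read as a result about the members.

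MAP1LC3A and MAP1LC3B2 were near or at 0. MAP1LC3A had 0 reads in all 9 full-medium libraries. In EBSS it had 2, 0 and 1 reads in WT, 0, 0 and 1 in ATG7KO, and 12, 3 and 8 in RB1CC1KO. The 23 reads of RB1CC1KO in EBSS were 7.18-fold over a floor of 3 reads for that line in full medium, scaled by library size. This ratio allows for no error in the 23 reads. They were 6.40-fold over WT in EBSS (95% interval 1.93 to 33.3, counting error only). MAP1LC3B2 had 8 reads in all libraries together and no group above 4. Of the other relatives in the tables, MAP1LC3C had 13 reads in 7 libraries and GABARAPL3, a processed pseudogene, had 8 reads in 4.

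The 4 proteases split in direction. ATG4D, which is cut by caspases to an active form, rose in all 3 lines. It stood at 38.2, 31.9 and 31.4 CPM in WT in full medium and at 51.6, 49.1 and 53.0 CPM in EBSS. In ATG7KO it went from 32.2, 35.1 and 35.0 CPM to 48.3, 62.1 and 59.6 CPM, and in RB1CC1KO from 38.2, 32.3 and 36.8 CPM to 54.5, 48.1 and 60.1 CPM. The media did not overlap in any line. The change on the log2 scale was 0.60 ± 0.09 in WT (edgeR adjusted p = 1.33e-06), 0.72 ± 0.10 in ATG7KO (5.45e-08) and 0.60 ± 0.09 in RB1CC1KO (9.26e-07). KRI1, a nucleolar protein gene on the opposite strand, shares 341 of the 2278 exon bases of ATG4D (15.0%) and moved the other way, by -1.10, -0.98 and -1.12.

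ATG4B, the protease that processes most ATG8 proteins, rose by less. It stood at 61.5, 55.2 and 55.0 CPM in WT in full medium and at 69.2, 57.4 and 72.0 CPM in EBSS, so the media overlapped there. In ATG7KO it went from 50.5, 49.7 and 59.5 CPM to 64.2, 65.9 and 75.1 CPM, and in RB1CC1KO from 57.1, 51.5 and 57.0 CPM to 79.0, 64.7 and 68.9 CPM, without overlap. As a log2 fold change this was 0.21 ± 0.09 in WT (edgeR adjusted p = 0.0356), 0.35 ± 0.09 in ATG7KO (0.00119) and 0.36 ± 0.09 in RB1CC1KO (0.000498). The WT call rested on single libraries: it was lost without full-medium replicate 2 (0.18, adjusted p = 0.114) or 3 (0.16, 0.156) and without EBSS replicate 1 (0.15, 0.199) or 3 (0.15, 0.181). Upper-quartile scaling also ended the call in WT (0.06, 0.581) and in ATG7KO (0.18, 0.0843).

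ATG4C moved down. It stood at 12.3, 15.9 and 14.1 CPM in WT in full medium and at 9.86, 13.3 and 9.87 CPM in EBSS, with overlap. In ATG7KO it went from 15.9, 14.4 and 14.5 CPM to 11.3, 10.7 and 14.2 CPM, and in RB1CC1KO from 17.0, 17.3 and 17.1 CPM to 10.7, 12.6 and 12.9 CPM. The fitted change in log2 was -0.36 ± 0.13 in WT (edgeR adjusted p = 0.0123), -0.36 ± 0.13 in ATG7KO (0.0146) and -0.51 ± 0.12 in RB1CC1KO (0.000346). The WT call was lost without full-medium replicate 2 (-0.25, 0.120) or EBSS replicate 3 (-0.28, 0.0730). The ATG7KO call was lost without full-medium replicate 1 (-0.31, 0.0613) or EBSS replicate 2 (-0.34, 0.0526).

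ATG4A, which acts mainly on the GABARAP branch, fell in WT. It stood at 14.6, 15.0 and 14.9 CPM in full medium and at 11.6, 11.7 and 11.7 CPM in EBSS in that line, and the log2 fold change was -0.35 ± 0.11 (edgeR adjusted p = 0.00635). In ATG7KO it stood at 13.5, 13.0 and 12.0 CPM in full medium and 9.89, 11.0 and 12.3 CPM in EBSS, and in RB1CC1KO at 13.1, 15.1 and 14.9 CPM and 12.2, 13.9 and 10.8 CPM. The media overlapped in both knockout-labelled lines, where the values were -0.25 ± 0.12 (0.0646) and -0.21 ± 0.11 (0.0839). Both passed under some alternatives: in ATG7KO without full-medium replicate 3 (-0.30, 0.0474) or EBSS replicate 3 (-0.30, 0.0418), and in RB1CC1KO without full-medium replicate 1 (-0.27, 0.0442) or EBSS replicate 2 (-0.32, 0.0234). Upper-quartile scaling gave -0.41 (0.00279) and -0.35 (0.00439), and relative log expression scaling gave -0.27 (0.0484) in ATG7KO.

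**Figure D3:**
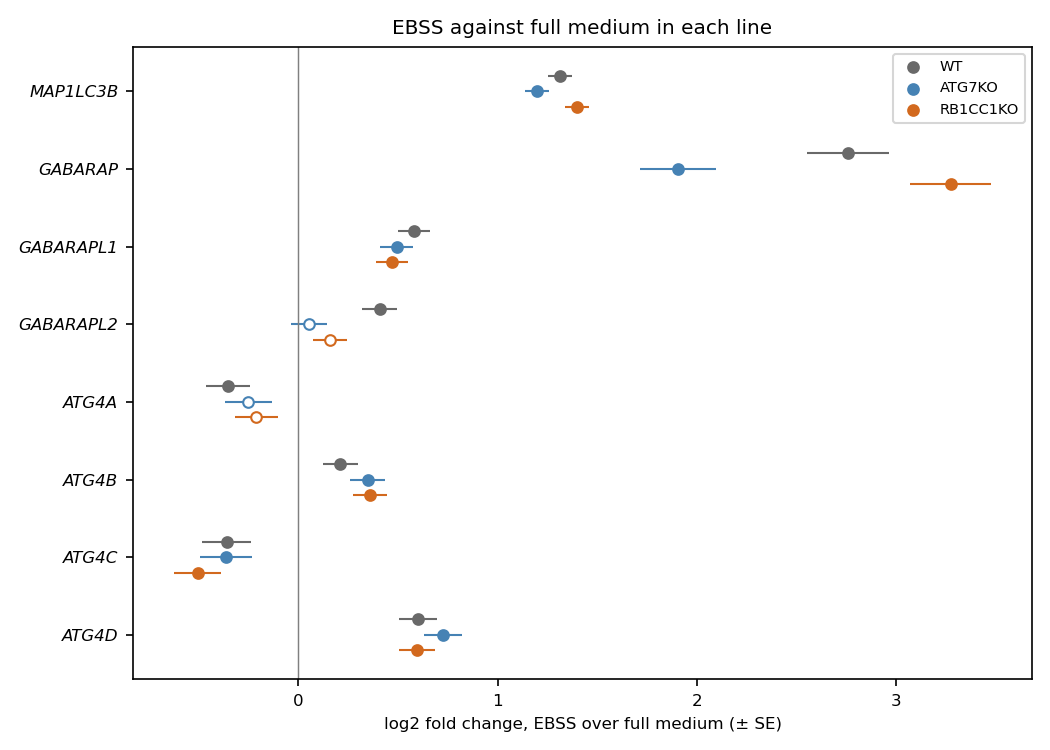
Log2 fold change of EBSS over full medium with its SE for the 8 tested genes in each line (3 libraries per group). Filled points passed an adjusted p of 0.05 and open points did not; MAP1LC3B lies between 1.20 and 1.40, ATG4D between 0.60 and 0.72, and ATG4A and ATG4C lie below 0.

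Levels of different genes were compared only per length, as CPM per kb of exon. By this length MAP1LC3B was above GABARAPL2 and GABARAPL2 above GABARAPL1 in all 6 groups, with no overlap between neighbours. In WT in full medium the levels were 17.4 ± 1.25, 11.3 ± 0.487 and 7.92 ± 0.162 CPM per kb (SD, n = 3), and in EBSS 43.4 ± 1.83, 15.0 ± 1.86 and 11.9 ± 0.726. GABARAP was listed at 0.508 ± 0.107 and 3.47 ± 0.298 CPM per kb in WT, but its place in the order is not given because of the exon bases it shares with AC120057.2. Among the proteases ATG4D was highest, at 14.9 ± 1.67 in WT in full medium and 22.5 ± 0.876 in EBSS, and ATG4B followed at 8.62 ± 0.556 and 9.97 ± 1.16. ATG4A and ATG4C came last, at 5.07 ± 0.0712 and 4.53 ± 0.578 in WT in full medium, and their ranges overlapped in WT in both media and in both knockout-labelled lines in EBSS.

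The order of the first 2 depends on the length that is used. With the longest coding transcript in place of all exon bases, GABARAPL2 made up 41.0% of the ATG8 sum in WT in full medium against 41.2% for MAP1LC3B, 46.9% against 37.9% in ATG7KO and 46.1% against 39.5% in RB1CC1KO. In EBSS MAP1LC3B was first by either length. ATG4B and ATG4D were likewise near equal in WT in full medium by that length, at 37.8% and 37.7% of the ATG4 sum.

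**Figure D4:**
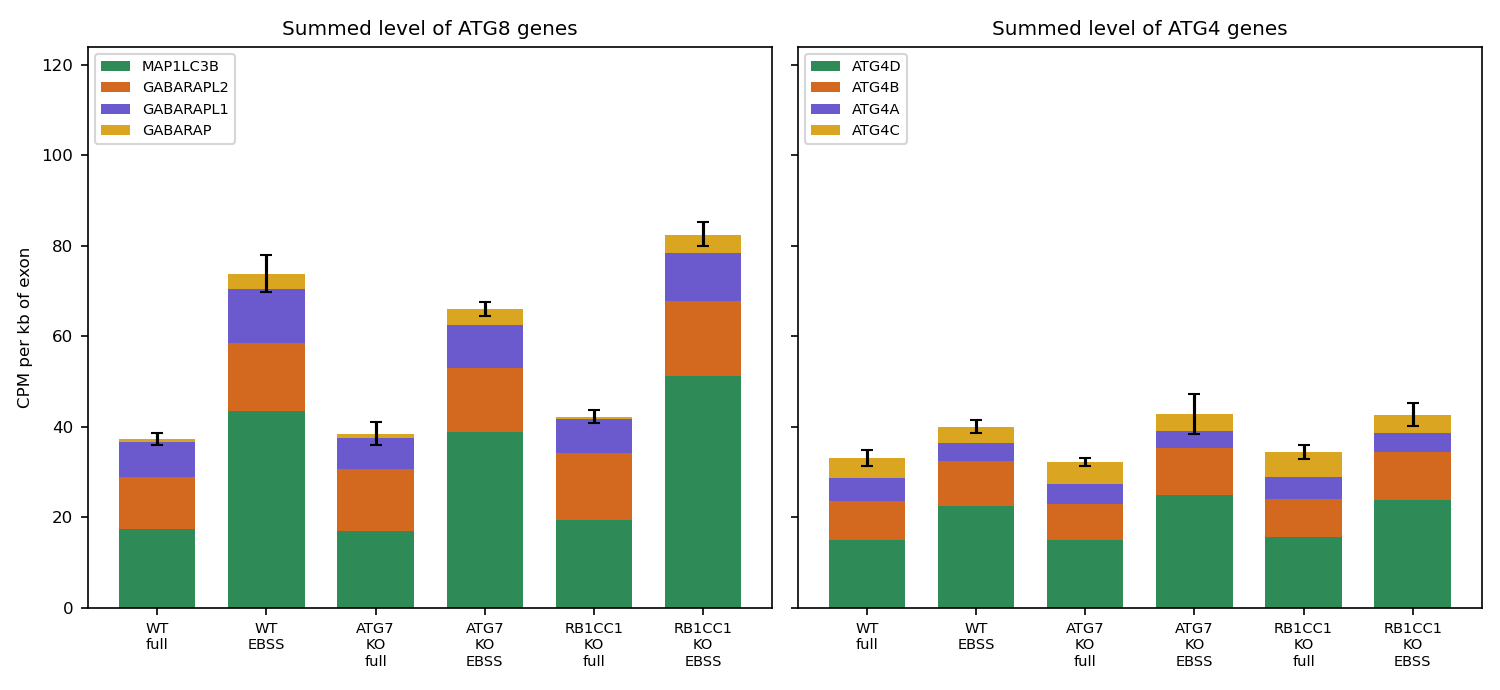
Summed level of the ATG8 genes (left) and the ATG4 genes (right) in CPM per kb of exon, stacked by gene, as means of 3 libraries per group with the SD of the sum. MAP1LC3A and MAP1LC3B2 are too low to draw; the ATG8 sum goes from 37.2 to 73.8 in WT while the ATG4 sum goes from 33.1 to 40.0.

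Summed per length, the ATG8 genes stood at 37.2 ± 1.32 CPM per kb in WT in full medium and 73.8 ± 4.10 in EBSS (SD, n = 3). The sums were 38.4 ± 2.48 and 66.0 ± 1.55 in ATG7KO, and 42.2 ± 1.38 and 82.6 ± 2.64 in RB1CC1KO. The ATG4 sums moved less, from 33.1 ± 1.71 to 40.0 ± 1.41 in WT, from 32.2 ± 0.816 to 42.9 ± 4.39 in ATG7KO and from 34.4 ± 1.54 to 42.6 ± 2.55 in RB1CC1KO. The ratio of the 2 sums was thus 1.13 ± 0.0869 in full medium and 1.85 ± 0.148 in EBSS in WT, 1.20 ± 0.0974 and 1.55 ± 0.192 in ATG7KO, and 1.23 ± 0.0894 and 1.94 ± 0.136 in RB1CC1KO, and full-medium and EBSS libraries did not overlap in any line. MAP1LC3B made up 46.8% of the ATG8 sum in WT in full medium and 58.9% in EBSS, 44.1% and 58.9% in ATG7KO, and 46.1% and 62.1% in RB1CC1KO. ATG4D made up 44.8% of the ATG4 sum in WT in full medium and 56.2% in EBSS. The size of the ratio depends on the length used. By the longest coding transcript it was 1.83 in full medium and 2.86 in EBSS in WT. It was then 2.00 and 2.42 in ATG7KO, and 2.07 and 3.00 in RB1CC1KO. The ATG8 sum includes GABARAP, whose count may come from part of the gene, at 1.36% and 4.73% of the sum in WT. These sums and ratios are descriptions, with no test.

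Each knockout-labelled line was also compared with WT within a medium. In full medium 2 of the 8 tested genes were higher and 0 lower in ATG7KO than in WT, where 4.47% of all tested genes were higher and 6.07% lower. In RB1CC1KO 1 was higher and 0 lower (background 8.3% and 8.87%). In EBSS 0 were higher and 1 was lower in ATG7KO (background 6.07% and 7.17%), and 1 was higher and 0 lower in RB1CC1KO (background 14.8% and 16.9%). Both comparisons within a medium share its WT libraries. No ATG4 gene was called in any of them, and their log2 differences from WT ranged from -0.21 (ATG4A, ATG7KO, full medium) to 0.27 (ATG4C, RB1CC1KO, full medium).

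GABARAPL2 in full medium was higher than WT in both knockout-labelled lines. Its 3 WT libraries lay at 33.5 to 36.1 CPM, below all 3 of ATG7KO (39.5 to 45.0) and all 3 of RB1CC1KO (42.5 to 46.2). The log2 difference was 0.28 ± 0.09 in ATG7KO (edgeR adjusted p = 0.0344) and 0.39 ± 0.09 in RB1CC1KO (0.00140). The ATG7KO call was lost without WT full-medium replicate 1 (0.26, 0.119) or 2 (0.26, 0.104) and without ATG7KO replicate 1 (0.30, 0.0611) or 2 (0.22, 0.203). The RB1CC1KO call held under each alternative that was run (highest adjusted p = 0.0160). In EBSS the differences were -0.07 (0.674) and 0.14 (0.208).

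GABARAP was higher in ATG7KO than in WT in full medium, by 0.77 ± 0.25 (edgeR adjusted p = 0.0400) on 104 reads against 54. That call was lost without WT replicate 1 (0.62, 0.200) or 2 (0.84, 0.0728), without ATG7KO replicate 2 (0.58, 0.246), with no filter (0.0728), with the compared groups alone (0.0766) and with DESeq2 (0.0534). In RB1CC1KO the difference in full medium was -0.30 ± 0.29 (0.517).

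In EBSS, MAP1LC3B was higher in RB1CC1KO than in WT, with all 3 libraries (260 to 281 CPM) above the WT range (220 to 240 CPM), by 0.24 ± 0.06 (edgeR adjusted p = 0.00172). In ATG7KO all 3 libraries (203 to 212 CPM) lay below that range, with a difference of -0.16 ± 0.06 that missed the threshold (0.0735). It passed with DESeq2 (-0.17, 0.0411) and without ATG7KO EBSS replicate 1 (-0.21, 0.0372). In full medium RB1CC1KO differed by 0.15 ± 0.06 (0.0840), and by 0.22 without WT replicate 2 (0.0253). GABARAPL1 in EBSS was lower in ATG7KO than in WT, at 38.6 to 40.5 CPM against 45.1 to 50.7, by -0.29 ± 0.08 (0.0126). With WT EBSS replicate 1 left out (-0.28, 0.0540), or ATG7KO EBSS replicate 2 (-0.29, 0.0561), it no longer passed. In RB1CC1KO it differed by -0.18 ± 0.08 (0.0709), and by -0.23 without WT EBSS replicate 3 (0.0390). In full medium GABARAPL1 in ATG7KO differed by -0.21 ± 0.08 (0.111), and by -0.30 without ATG7KO replicate 2 (0.0342).

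**Figure D5:**
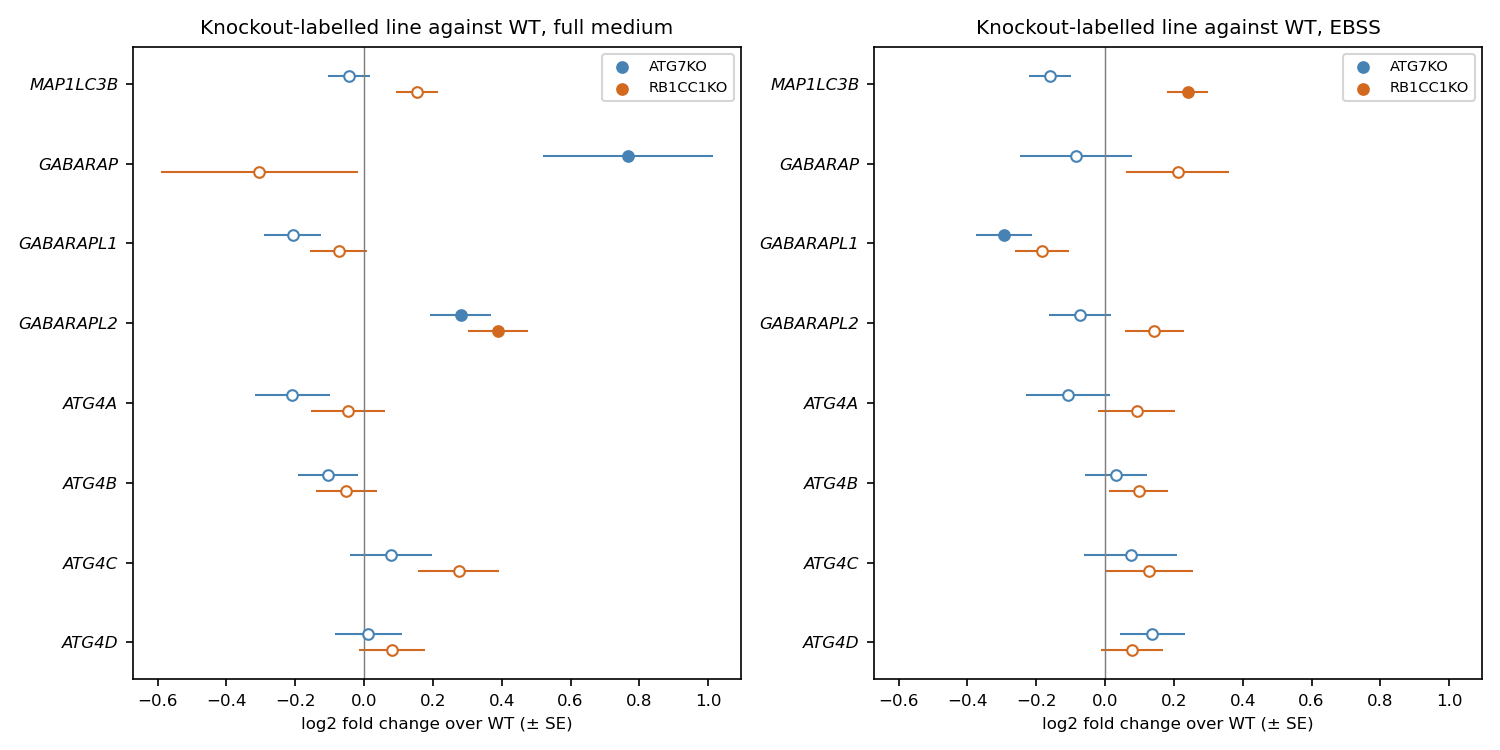
Log2 difference from WT with its SE for the 8 tested genes in full medium (left) and in EBSS (right), 3 libraries per group. Filled points passed an adjusted p of 0.05: GABARAPL2 in both lines and GABARAP in ATG7KO in full medium, and MAP1LC3B in RB1CC1KO and GABARAPL1 in ATG7KO in EBSS.

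The lists of other genes in the pathway are read against all tested genes, of which 32.4%, 32.3% and 31.9% rose and 32.1%, 30.6% and 33.3% fell in EBSS in WT, ATG7KO and RB1CC1KO, with medians of -0.02, -0.01 and -0.03. Of 7 tested genes of the machinery that conjugates ATG8 proteins, 3 rose and 2 fell in each line, near those shares. The medians were 0.16, 0.17 and 0.09. ATG7 itself is among the 3 that rose in ATG7KO and was not called in WT or RB1CC1KO. ATG12, a ubiquitin-like protein of the E3-like complex, rose by 0.95 ± 0.08, 0.88 ± 0.08 and 0.84 ± 0.08 in WT, ATG7KO and RB1CC1KO (edgeR adjusted p at most 3.07e-11). ATG3 rose by 0.44 ± 0.07, 0.47 ± 0.07 and 0.35 ± 0.07. ATG16L2, a relative of the complex's scaffold ATG16L1, changed by -1.39 ± 0.20, -1.61 ± 0.23 and -1.08 ± 0.20, from 7.47 ± 0.400 to 2.84 ± 0.873 CPM in WT. ATG7 itself rose by 1.38 ± 0.13 in ATG7KO, from 4.02 to 10.4 CPM, while in WT it was at 15.6 and 16.1 CPM.

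Of the cargo receptors that bind ATG8 proteins, 20 of 21 were tested. In EBSS 12 rose and 1 fell in WT, 13 rose and 2 fell in ATG7KO, and 12 rose and 1 fell in RB1CC1KO, with medians of 0.47, 0.41 and 0.39, where 32.4% of all tested genes rose and 32.1% fell in WT. CALCOCO2 (NDP52), a receptor for ubiquitin-coated bacteria and mitochondria, rose by 1.53 ± 0.07, 1.31 ± 0.07 and 1.23 ± 0.07. TAX1BP1, a related receptor, rose by 1.03 ± 0.07, 0.83 ± 0.07 and 0.87 ± 0.07. SQSTM1 (p62), which links ubiquitinated proteins to ATG8 proteins, rose by 0.93 ± 0.06, 0.97 ± 0.06 and 0.76 ± 0.06, from 161 ± 8.83 to 307 ± 10.4 CPM in WT.

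Of 12 other ATG8-binding proteins of the pathway, 10 were tested. In EBSS 4 rose and 3 fell in WT, near the background shares, 6 and 3 in ATG7KO, and 5 and 3 in RB1CC1KO, with medians of 0.10, 0.32 and 0.26. ULK1, the kinase that starts autophagy, rose by 1.20 ± 0.09, 1.34 ± 0.09 and 1.38 ± 0.09. FYCO1, which links autophagosomes to microtubule motors, changed by -1.60 ± 0.09, -1.70 ± 0.10 and -2.19 ± 0.10. KBTBD7, a ubiquitin ligase adaptor that binds GABARAP proteins, changed by -1.90 ± 0.15, -2.09 ± 0.16 and -2.95 ± 0.16.

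The genes whose pattern was most like that of MAP1LC3B were found by the root mean square difference of centred log2 CPM over the 6 group means, among 12833 genes. They were SLTM (0.04), KDM5B (0.04) and NCOA3 (0.05), against a median of 0.71 over all genes compared. The other tested ATG8 genes were further off, at rank 1911 for GABARAPL1, 3853 for GABARAPL2 and 6726 for GABARAP. For ATG4B the nearest were SEC61A1 (0.02), AUP1 (0.03) and BRD1 (0.03), against a median of 0.31, and ATG4D, ATG4A and ATG4C ranked 3098, 5999 and 7505.

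Promoter sequences from RefSeq (GRCh38.p14, 250 bases before to 50 after the start) were matched for 8 of the 10 members, all but MAP1LC3A and ATG4D. MAP1LC3B and GABARAPL1, which rose in all 3 lines, are shown because each held 1 match to a searched motif. The match is in capitals, within the 100 bases before the start. GABARAP and ATG4B, which also rose in all 3 lines, held no match to any searched motif. Neither did MAP1LC3B2, GABARAPL2, ATG4A or ATG4C. The window of MAP1LC3B is chr16:87392236-87392335 and that of GABARAPL1 is chr12:10212777-10212876, both on the plus strand.

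MAP1LC3B: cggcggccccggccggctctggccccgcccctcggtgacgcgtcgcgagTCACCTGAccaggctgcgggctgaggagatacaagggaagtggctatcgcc
GABARAPL1: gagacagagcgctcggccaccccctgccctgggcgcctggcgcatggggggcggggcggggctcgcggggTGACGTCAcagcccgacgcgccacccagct

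The match in MAP1LC3B is to TCACNTGA, from position -51, a motif found in 3.79% of 35116 RefSeq promoters of this length. That in GABARAPL1 is to TGACGTCA, from position -30, found in 1.85%. CACGTG (7.26% of promoters), GTAAACA (3.42%) and TGATGNAA (3.62%), searched like the others on both strands, had no match in the 8 windows, which says only that these letters are not there. The motifs were chosen with the responses known, and a match describes the sequence, not a site of binding.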

How the data were processed

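Poly(A) RNA was sequenced with 75 bp single-end reads from a directional kit, per the labels' protocols. The authors deposited whole-number read counts per Ensembl gene; STAR 2.4.2a, Picard, HTSeq 0.6.1p1, edgeR and DESeq2, and the builds hg19 and GRCh37, are named per the submitters' processing notes. No source used here gives the counting mode or strand setting. Rows without a gene stayed out. No feature was 9.39% to 15.1%, and ambiguous 2.08% to 2.42%, of the gene, no-feature and ambiguous reads together. Not unique was 16.5% to 18.4% of the total that also includes the not-unique reads.

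From these counts, edgeR 4.0.16 (limma 3.58.1, R 4.3.3; filterByExpr, TMM, 1 mean per group, robust glmQLFit, glmQLFTest) was fitted to 18 libraries and 15179 genes and tested on simulated data; SE is the absolute log2 fold change over the square root of F. The biological coefficient of variation was 6.72%. DESeq2 1.42.0 was an alternative, with other scalings, no filter, the compared groups alone, a replicate block and each library left out. Levels per length used union exons of GENCODE 29 (GRCh38). Genes named were the members, and from each of 3 lists the 3 genes with the smallest p in WT. Members and lists were chosen with earlier results of these data known. Intervals and floors cover counting error only; bulk RNA cannot separate fewer expressing cells from less RNA per cell. Of the haematopoietic marker list, 1 gene is not reported here.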

Additional observations from a re-analysis of the deposited data

How the results depend on the processing

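Of 1032 single-gene values recomputed under the alternatives, 962 kept their direction and side of the threshold, 22 lost a call, 14 gained one and 34 changed sign; none of the 34 was called in either setting. Upper-quartile scaling moved the median of all genes in the 3 responses (WT, ATG7KO, RB1CC1KO) to -0.17, -0.17 and -0.17 from -0.02, -0.01 and -0.03, and the higher share of calls to 37.4%, 37.2% and 37.0% from 50.3%, 51.3% and 48.9%.

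Members called in ATG7KO against WT in full medium went from 2 to 1 with no filter, with the compared groups alone and with DESeq2. The count lay between 0 and 2 when 1 library was left out. Calls among all genes moved too, from 1599 of 15179 as fitted to 1572 of 30638 with no filter. They were 1908 of 14200 with the compared groups alone and 1562 of 15179 with DESeq2. With 1 library left out they lay between 1070 of 15530 and 1464 of 15479. In RB1CC1KO in full medium the count lay between 1 and 2 with 1 library left out. It was 2 without WT replicate 2 (2259 of 15479 genes called, against 2606 of 15179 as fitted). In RB1CC1KO in EBSS it also lay between 1 and 2. It was 2 without WT replicate 3 (4409 of 15564, against 4803 of 15179 as fitted). For ATG7KO in EBSS it lay between 0 and 2. It was 0 without WT replicate 1 (1460 of 15579) or ATG7KO replicate 2 (1235 of 15572). Without ATG7KO replicate 1 it was 2 (1914 of 15513). As fitted, 2010 of 15179 genes were called there. In ATG7KO minus WT the member count lay between 0 and 1, with 71 to 275 calls among all genes against 160 as fitted. The DESeq2 count of members for ATG7KO in EBSS was 2, where DESeq2 called 1918 of 15179 genes.

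The same replicate number did not pair libraries (correlations of deviations from -0.08 to 0.22, not above 0.1 for every pair in any comparison). With the number as a replicate block, the count of members for ATG7KO against WT in EBSS went from 1 to 2. MAP1LC3B passed at -0.16 (edgeR adjusted p = 0.0464), while calls among all 15179 genes went from 2010 to 2262. The block changed no other call of a member.

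By the longest coding transcript the ATG8 sums were 83.6 and 157 in WT, 88.6 and 141 in ATG7KO and 97.3 and 176 in RB1CC1KO (full medium, then EBSS), and the ATG4 sums 45.9 and 55.2, 44.3 and 58.8, and 47.2 and 58.8. Without GABARAP, an alternative chosen after seeing the data, the ATG8 sums in EBSS were 62.6 in ATG7KO and 78.6 in RB1CC1KO.

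Sign changes were as follows. The GABARAPL2 response in ATG7KO was -0.1086 with upper-quartile scaling and between -0.0811 and 0.1145 with 1 library left out. The ATG4D difference RB1CC1KO minus WT, -0.0042 as fitted, was 0.0051 with upper-quartile scaling, 0.0138 with relative log expression scaling, 0.0264 with the compared groups alone and 0.015 with DESeq2, and between -0.0965 and 0.0807 with 1 library left out. The other sign changes came from leaving out 1 library. In ATG7KO against WT in full medium the ranges were -0.078 to 0.0194 (MAP1LC3B), -0.0114 to 0.184 (ATG4C) and -0.0331 to 0.1041 (ATG4D), and in EBSS -0.0616 to 0.0976 (ATG4B) and -0.0103 to 0.2372 (ATG4C). In RB1CC1KO against WT they were -0.0997 to 0.0159 (ATG4A, full medium), -0.0126 to 0.1678 (ATG4A, EBSS) and -0.0008 to 0.1634 (ATG4D, EBSS). For ATG7KO minus WT they were -0.1784 to 0.0047 (GABARAPL1) and -0.1091 to 0.1594 (ATG4C), and for RB1CC1KO minus WT -0.2522 to 0.0169 (ATG4C). The causes were not tested. At this depth MAP1LC3A and MAP1LC3B2 had too few reads to be tested.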

Other observations

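Without the filter on low counts, MAP1LC3A was called higher in EBSS in RB1CC1KO (edgeR adjusted p = 0.000224), on 23 reads of which replicate 1 gave 12, and in EBSS it differed from WT at an adjusted p of 0.0613. In WT and ATG7KO the same fit gave 0.191 and 0.455.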
